A study of Homo sapiens with 17 samples.

Results

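The 42 genes described here encode the subunits of hypoxia-inducible factor (HIF), proteins that set its stability and activity, well known HIF targets, and the enzymes that carry glucose through glycolysis. They form a list of named genes drawn up with earlier results of these data known, and all 42 were found by Ensembl identifier among the 63677 genes counted in 15 RNA-seq libraries of lymphoma cell lines. HIF is a dimer of an oxygen-regulated alpha subunit, HIF1A or EPAS1, with its constant partner ARNT. When oxygen is present, prolyl hydroxylases such as EGLN1 and EGLN3 mark the alpha subunit for destruction through VHL; when oxygen is scarce the dimer recruits the acetyltransferases p300 and CBP and turns on genes for glucose uptake, glycolysis, blood vessel growth and survival. Dividing lymphoma cells in culture use the same glycolytic enzymes at ordinary oxygen, where other factors such as MYC also drive them.

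The study concerns histone acetylation and chromatin folding in diffuse large B cell lymphoma, and it used total RNA of the established lines Karpas-422 and WSU-DLCL2. There were 5 groups of 3 libraries each. Karpas-422 was treated for 48 h with A-485, an inhibitor of the catalytic activity of p300 and CBP, and was compared with untreated Karpas-422. WSU-DLCL2 clones 1, 2 and 3, labelled as BCL11A knockouts and named as 1 clone per library, were compared with untreated WSU-DLCL2, and WSU-DLCL2 treated with A-485 for 48 h formed the fifth group. BCL11A is a B-lineage transcription factor with zinc fingers. The treatment entries call the control cells untreated, while their deposited tables are named for DMSO, a common solvent for such inhibitors. Whether replicates are separate cultures is not said, so the p-values cover differences between libraries only, and some of these may be technical.

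Libraries came in 2 kinds. The 9 libraries of Karpas-422 and of A-485-treated WSU-DLCL2 were shallow, with 6689320 to 8897051 counts in genes, and 43.0% to 55.5% of all their reads had no unique alignment. Within Karpas-422 this share was 48.8% to 49.0% with A-485 and 54.5% to 55.5% untreated. Genes detected numbered 19553 to 19787 with A-485 and 17041 to 18121 untreated. The part of these differences in the Karpas-422 results was not tested. The 6 libraries of the clones and of untreated WSU-DLCL2 held 21233752 to 37286727 counts in genes, and 7.73% to 9.24% of their reads had no unique alignment. A-485 treatment and kind of library therefore cannot be told apart in WSU-DLCL2, and the treated WSU-DLCL2 libraries are shown beside the Karpas-422 libraries without a test. Levels of the same gene also differed between the untreated lines, which also differ in kind of library, so neither can be singled out: over the 38 members with counts in both untreated lines, 29 had a lower CPM (a gene's counts scaled to the library total) in Karpas-422, and the ratio of the lines ran against the number of annotated transcripts per gene (Spearman rho -0.52, across genes, a description). Some gaps were wide. Mean CPM in untreated Karpas-422 and untreated WSU-DLCL2 were 14.8 and 1484 for LDHA, 30.9 and 1441 for ENO1, and 0.621 and 65.8 for P4HA1. PGAM1, among the 9 members higher in Karpas-422, had 1009 and 74.0. A low CPM in Karpas-422 therefore cannot be assigned to the line rather than to the kind of library. All 8 B cell markers checked were detected in every group. In Karpas-422 the 5 T and NK cell markers summed to 549 to 588 CPM with A-485 and 637 to 682 CPM untreated; of these CD3G, a T cell receptor gene, ranged over 489 to 525 CPM with A-485 and 569 to 617 CPM untreated. CD247, another T cell receptor chain, went the other way, with 20.9 to 25.7 CPM with A-485 and 3.33 to 7.94 CPM untreated. DCN, a fibroblast gene, ranged over 177 to 193 CPM with A-485 and 381 to 428 CPM untreated. The other defining fibroblast markers, COL1A1 and COL1A2, were at 0 in those 6 libraries, as were the 4 epithelial and 3 erythroid markers, and the part of such RNA in the results was not tested. Replicate 3 of untreated WSU-DLCL2 has a title and a table name like those of the other controls but is A-485-treated in its treatment entry, and it stood apart from replicates 1 and 2. A chi-square per gene averaged 200.8 and 211.7 between it and those replicates, against 2.66 between the 2 of them. Of the 36 members with a mean of at least 1 CPM over replicates 1 and 2, 28 lay below both in replicate 3, 7 above both and 1 between. Results for the clones are therefore given with and without it.

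The letters that HIF binds are short. The 5-letter cores ACGTG and GCGTG were searched on both strands of the RefSeq promoters (GRCh38.p14, 250 bases before to 50 after the start), and a CACGTG counts as 2 matches because it reads ACGTG on each strand. Of the 42 members, 38 had a promoter in the table. At least 1 core was found in 29 of these 38 promoters (76.3%), against 17012 of all 35116 promoters (48.4%), and ACGTG alone was found in 19 of the 38 (50%), against 21.4% of all promoters. A match describes the sequence and is not a bound site. Shown here are the promoters of the genes the results turn on, with the cores in capitals and each written 5' to 3' on the strand of its gene. KDM3A (chr2:86441121-86441420, plus strand) encodes a histone demethylase and rose most with A-485, and SIAH2 (chr3:150763120-150763419, minus strand) encodes a ubiquitin ligase that acts on HIF hydroxylases and fell most. GPI (chr19:34364742-34365041, plus strand), PGK1 (chrX:78103998-78104297, plus strand) and LDHA (chr11:18394313-18394612, plus strand) encode enzymes of glycolysis that fell. ADM (chr11:10304823-10305122, plus strand) encodes the peptide adrenomedullin and had no counts in the BCL11A clones.
KDM3A: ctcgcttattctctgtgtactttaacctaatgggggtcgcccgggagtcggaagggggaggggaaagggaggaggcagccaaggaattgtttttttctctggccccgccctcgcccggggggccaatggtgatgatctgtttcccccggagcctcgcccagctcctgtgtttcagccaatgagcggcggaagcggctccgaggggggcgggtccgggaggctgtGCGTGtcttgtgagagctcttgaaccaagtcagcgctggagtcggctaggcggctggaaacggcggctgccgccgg
SIAH2: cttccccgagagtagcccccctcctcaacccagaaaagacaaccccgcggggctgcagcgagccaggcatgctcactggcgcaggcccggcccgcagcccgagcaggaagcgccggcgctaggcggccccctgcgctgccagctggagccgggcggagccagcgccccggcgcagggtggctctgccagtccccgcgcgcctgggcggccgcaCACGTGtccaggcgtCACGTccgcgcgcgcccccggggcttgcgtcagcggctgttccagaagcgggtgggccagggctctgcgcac
GPI: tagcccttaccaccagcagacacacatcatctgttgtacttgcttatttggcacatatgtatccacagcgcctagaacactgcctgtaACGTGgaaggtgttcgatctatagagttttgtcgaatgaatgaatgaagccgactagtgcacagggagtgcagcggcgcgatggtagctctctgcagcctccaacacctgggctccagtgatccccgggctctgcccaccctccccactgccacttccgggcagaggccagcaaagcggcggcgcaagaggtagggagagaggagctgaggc
PGK1: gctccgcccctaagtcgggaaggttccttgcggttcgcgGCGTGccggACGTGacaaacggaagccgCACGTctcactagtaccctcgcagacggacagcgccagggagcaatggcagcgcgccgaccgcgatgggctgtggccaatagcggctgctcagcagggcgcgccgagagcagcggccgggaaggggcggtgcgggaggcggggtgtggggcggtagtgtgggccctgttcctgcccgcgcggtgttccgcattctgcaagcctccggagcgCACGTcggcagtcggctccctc
LDHA: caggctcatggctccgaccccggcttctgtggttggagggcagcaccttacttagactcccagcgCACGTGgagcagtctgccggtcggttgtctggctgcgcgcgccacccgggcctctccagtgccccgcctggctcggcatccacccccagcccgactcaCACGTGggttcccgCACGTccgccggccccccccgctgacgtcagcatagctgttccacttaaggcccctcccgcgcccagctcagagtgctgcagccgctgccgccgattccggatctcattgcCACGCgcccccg
ADM: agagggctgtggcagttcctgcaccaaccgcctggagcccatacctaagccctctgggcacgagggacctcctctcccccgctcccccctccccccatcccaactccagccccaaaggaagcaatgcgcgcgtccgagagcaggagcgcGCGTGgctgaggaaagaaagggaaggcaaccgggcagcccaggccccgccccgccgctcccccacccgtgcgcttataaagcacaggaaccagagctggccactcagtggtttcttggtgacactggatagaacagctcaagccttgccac

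The 6 promoters differ in the number of cores. KDM3A, GPI and ADM each have 1 core in these 300 bases, SIAH2 has 3, PGK1 has 4 and LDHA has 6. Among members with a promoter, a core was present in 13 of the 18 called down with A-485 in Karpas-422 and in 6 of the 7 called up. PGAM1, TPI1, HK1, PDK1 and PGM1 had no core in this window and were also called down.

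In Karpas-422, A-485 lowered the RNA of most members that could be tested, among them genes of glucose entry, of the middle of glycolysis and of lactate formation. SIAH2 fell most, to 123 ± 2.61 CPM with A-485 against 1293 ± 64.1 CPM untreated, and KDM3A rose most, to 31.4 ± 0.581 CPM with A-485 against 6.23 ± 1.04 CPM untreated (SD, n = 3 each). HIF1A and ARNT, the HIF subunits that could be tested, both rose. Calls were made at an adjusted p under 0.05 in edgeR's quasi-likelihood test, where the Benjamini-Hochberg adjustment ran over all genes. Of the 42 members, 32 passed the filter on low counts. Of these, 8 were called up (25% of those tested), against 37.6% of all 11846 genes tested, and 19 were called down (59.4%), against 33.7% of all genes. PFKL and ENO2 among the rises, and VEGFA and PGM1 among the falls, passed the filter only with the group where they were higher. The members' median log2 fold change was -0.52 and that of all genes tested 0.08. A call by itself was common here, since 71.4% of all genes were called, and an unadjusted p under 0.05 was reached by 73.6%. In 8 members the A-485 libraries lay wholly above the untreated ones (39.8% of all genes tested) and in 19 wholly below (34.9%), where 74.7% of all genes had groups that did not overlap.

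Each library pools many cells, so fewer cells with a transcript and less of it per cell cannot be told apart, and CPM give a share of the library, not an amount per cell. The CPM given for Karpas-422 here are scaled by TMM (trimmed mean of M values). With library sizes alone in place of TMM the median of all genes lay at 0.49, the members' median at -0.12, and 10 members were called up and 12 down. Genes with many annotated transcripts moved up as a whole in this comparison: the median over all genes was 0.66 for those with over 20 transcripts and -0.21 for those with 2 to 3. The 5 members with over 20 transcripts had a median of -0.97, and the 4 with 2 to 3 had -1.42. Members in the classes between had -0.81 (6 members, 4 to 6 transcripts), -0.52 (6 members, 7 to 10) and 0.10 (11 members, 11 to 20). The medians over all genes in those classes were -0.18, 0.10 and 0.39. Of the 27 calls, 3 of the 8 up (HIF1A, KDM3A and PFKL) and 12 of the 19 down (SIAH2, CITED2, SLC2A1, HK1, HK2, GPI, ALDOA, TPI1, PGK1, PGAM1, ENO1 and LDHA) were also called the same way in all 11 alternatives. PFKL is counted here although it passed the filter on low counts only through the A-485 libraries, where it was high.

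**Figure D1:**
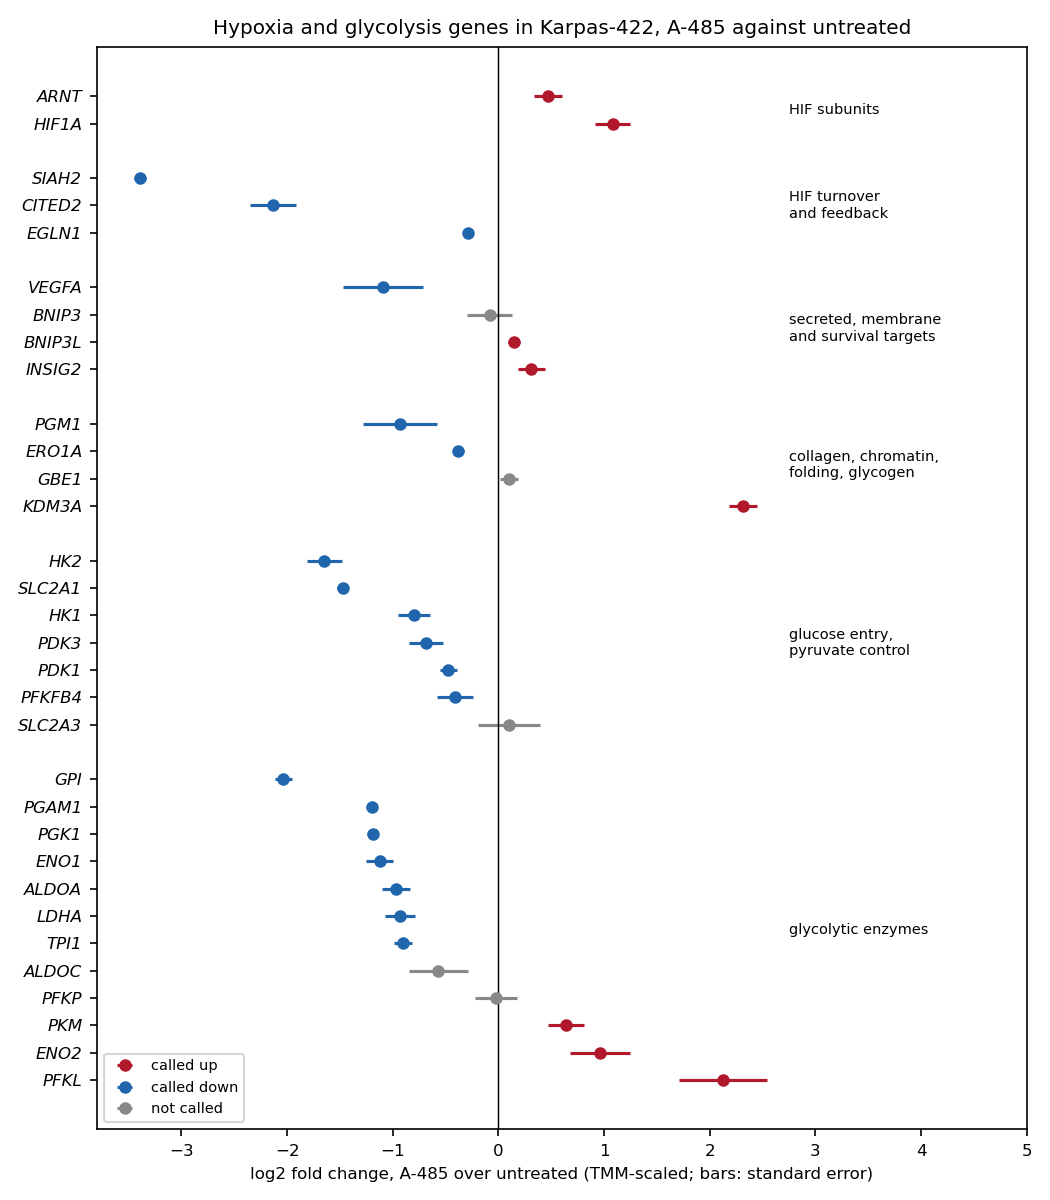
Log2 fold change of the 32 tested members in Karpas-422, A-485 over untreated (x axis, TMM-scaled, bars give the standard error), with genes down the page grouped by role and coloured by edgeR call. SIAH2 at -3.40 and KDM3A at 2.32 are the extremes, and 6 of the 7 genes of glucose entry and pyruvate control lie left of 0 as called falls.

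Both HIF subunits tested rose, where 37.6% of all genes were called up. HIF1A had 8.99, 9.90 and 9.71 CPM with A-485 and 4.84, 4.54 and 4.05 CPM untreated, a log2 fold change of 1.08 ± 0.17 (SE; adjusted p = 5.06e-05). ARNT had 15.8, 15 and 14.5 CPM with A-485 and 10.9, 11.7 and 9.96 CPM untreated (0.47 ± 0.13, adjusted p = 0.00556). In both genes every treated library lay above every untreated one, and the ARNT call was lost with DESeq2 (adjusted p = 0.0519). No source used here gives the counting strand, so reads of HIF1A and of its overlapping antisense genes HIF1A-AS1 and HIF1A-AS3 cannot be told apart. EPAS1, the alpha subunit best known from endothelium and kidney tumours, had no count in any of the 6 libraries.

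SIAH2, CITED2 and EGLN1, the 3 tested members with roles in HIF turnover and feedback, fell on the TMM scale, where 33.7% of all genes were called down. SIAH2, whose product marks the hydroxylase EGLN3 for degradation, had 124, 125 and 120 CPM with A-485 and 1231, 1359 and 1288 CPM untreated. This 10.5-fold fall (log2 fold change -3.40 ± 0.06, adjusted p = 3.58e-14) left a wide gap between the groups. CITED2, a HIF target whose product competes with HIF for p300 and CBP, had 2.66, 1.86 and 1.92 CPM with A-485 and 8.07, 9.24 and 11.1 CPM untreated (-2.13 ± 0.22, adjusted p = 8.43e-07). EGLN1, the main HIF prolyl hydroxylase, had 379, 369 and 372 CPM with A-485 and 450, 455 and 459 CPM untreated. Its log2 fold change was small, -0.28 ± 0.05 (adjusted p = 8.29e-05). With library sizes alone it turned to 0.12 and was called up, so its direction depended on the scaling. EGLN3, itself a HIF target, had no count in these libraries.

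Among secreted, membrane and survival targets, 2 rose, 1 fell and 1 did not pass the test, where 37.6% of all genes were called up and 33.7% down. VEGFA, the blood vessel growth factor, had 0.888, 1.37 and 0.708 CPM with A-485 and 3.09, 1.67 and 1.52 CPM untreated (-1.10 ± 0.38, adjusted p = 0.0184). It rested on 29 counts with A-485 and 43 untreated, and its call was lost with DESeq2, with library sizes alone and without A-485 replicate 1 or 3 or untreated replicate 1. Its A-485 libraries alone would not have passed the filter, so the call is no support for a difference. INSIG2, a brake on sterol synthesis, had 22.6, 19.2 and 20.7 CPM with A-485 and 14.8, 18.2 and 17.5 CPM untreated (0.31 ± 0.13, adjusted p = 0.0375). BNIP3L, a mitophagy receptor, had 116, 107 and 113 CPM with A-485 and 102, 102 and 99.2 CPM untreated (0.15 ± 0.06, adjusted p = 0.0348). These rises were small, and each was lost in 8 of the 11 alternatives, among them leaving out A-485 replicate 1 or 3 or untreated replicate 3, and in addition untreated replicate 1 for INSIG2 and untreated replicate 2 for BNIP3L. The related BNIP3 stayed uncalled at 5.22, 4.12 and 3.64 CPM with A-485 and 4.57, 4.09 and 5.06 CPM untreated, and 42 genes named as its pseudogenes could share its reads. NDRG1 and ANKRD37 were too low to test, with 7 counts of NDRG1 and 13 of ANKRD37 over the treated libraries and 2 and 6 over the untreated ones. The cytokine gene MIF, with 10 counts with A-485 and 35 untreated, was not tested either. ADM had no count, and neither had CA9, a carbonic anhydrase that serves as a hypoxia marker.

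KDM3A, a HIF target that removes methyl groups from histone H3, went against the falling enzymes. It had 31.7, 31.8 and 30.7 CPM with A-485 and 7.39, 5.91 and 5.40 CPM untreated, a log2 fold change of 2.32 ± 0.14 (adjusted p = 2.60e-09). ERO1A, the oxidase of protein folding, had 350, 339 and 352 CPM with A-485 and 440, 441 and 471 CPM untreated (-0.38 ± 0.05, adjusted p = 1.13e-05), and with library sizes alone its value was 0.03. PGM1, which links glycogen to glycolysis, had a log2 fold change of -0.93 ± 0.35 (adjusted p = 0.0280) from 41 counts with A-485 and 54 untreated. Its call was lost with DESeq2, with library sizes alone and without A-485 replicate 1 or 2 or untreated replicate 2. The A-485 libraries of PGM1 alone would not have passed the filter, so its call is no support for a difference. The glycogen branching enzyme GBE1 was not called (0.10 ± 0.09). The collagen prolyl hydroxylases P4HA1 and P4HA2 were too low to test.

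Glucose entry and its control fell in 6 of the 7 genes tested, where 33.7% of all genes were called down. SLC2A1, the glucose transporter GLUT1, had 122, 110 and 115 CPM with A-485 and 319, 316 and 330 CPM untreated (-1.48 ± 0.05, adjusted p = 2.90e-11). HK2, the inducible hexokinase, had 16.5, 13.0 and 11.9 CPM with A-485 and 35.8, 40.3 and 54.3 CPM untreated (-1.65 ± 0.17, adjusted p = 2.43e-06). HK1, the constitutive hexokinase, fell by 0.80 ± 0.15 (adjusted p = 3.63e-04). In these 3 genes every treated library lay below every untreated one. The pyruvate dehydrogenase kinases also fell, PDK3 by 0.68 ± 0.16 (adjusted p = 0.00181) and PDK1 by 0.47 ± 0.08 (adjusted p = 2.18e-04). PDK1 had 77.5, 83.8 and 85.3 CPM with A-485 and 100, 129 and 114 CPM untreated, and both kinases lost their call with library sizes alone. PFKFB4, which makes an activator of phosphofructokinase, had a log2 fold change of -0.41 ± 0.17 (adjusted p = 0.0431). This call was lost in 7 of the 11 alternatives, among them library sizes alone and leaving out A-485 replicate 2 or 3 or untreated replicate 2 or 3. The second glucose transporter SLC2A3 was not called (0.10 ± 0.29), and PFKFB3 was near 0.

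All 12 glycolytic enzymes were tested. Of these, 7 fell (33.7% of all genes were called down), 3 rose (37.6% were called up) and 2 were not called. GPI, the second enzyme of glycolysis, had 30.4, 25.7 and 27.9 CPM with A-485 and 108, 115 and 121 CPM untreated (-2.04 ± 0.08, adjusted p = 5.56e-11). PGAM1, the phosphoglycerate mutase, had 498, 525 and 496 CPM with A-485 and 1104, 1215 and 1169 CPM untreated (-1.20 ± 0.05, adjusted p = 1.45e-10). PGK1, the first ATP-forming step, had 127, 120 and 126 CPM with A-485 and 278, 293 and 279 CPM untreated (-1.19 ± 0.05, adjusted p = 1.33e-10). In these 3 genes the treated libraries lay far below the untreated ones, by 2.28-fold to 4.10-fold between the group means. ENO1, the main enolase, had 14.7, 16.6 and 17.6 CPM with A-485 and 41.4, 31.6 and 33.1 CPM untreated (-1.12 ± 0.13, adjusted p = 2.40e-06). LDHA, which forms lactate, had 8.43, 9.21 and 9.10 CPM with A-485 and 19.5, 15 and 16.5 CPM untreated (-0.93 ± 0.14, adjusted p = 4.78e-05). ALDOA (-0.97 ± 0.13) and TPI1 (-0.90 ± 0.08) fell by similar amounts. PGAM1 has 13 named pseudogenes, LDHA 6, and ENO1 and TPI1 4 each, so that reads may be split between copies.

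The enzymes that rose with A-485 included PKM, the pyruvate kinase, with 191, 180 and 180 CPM in treated libraries and 151, 110 and 89.9 CPM untreated (0.64 ± 0.17, adjusted p = 0.0150). Its untreated libraries were widely spread, and the call was lost without untreated replicate 2 and with no filter on low counts. ENO2, the neuronal enolase, had 2.66, 3.53 and 3.44 CPM with A-485 and 2.15, 1.51 and 1.18 CPM untreated (0.96 ± 0.28, adjusted p = 0.00748), a call lost with DESeq2. The untreated libraries of ENO2 alone would not have passed the filter, so its call is no support for a difference. PFKL, the liver-type phosphofructokinase, had 2.55, 1.96 and 2.22 CPM with A-485 and 0.538, 0.151 and 0.844 CPM untreated (2.12 ± 0.42, adjusted p = 4.21e-04), from only 65 counts with A-485 and 10 untreated. PFKL passed the filter on low counts only through the A-485 libraries, where it was high, so its call is no support for a difference. Its platelet-type relative PFKP was not called (-0.02 ± 0.20), and neither was ALDOC (-0.57 ± 0.28, adjusted p = 0.0800).

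**Figure D2:**
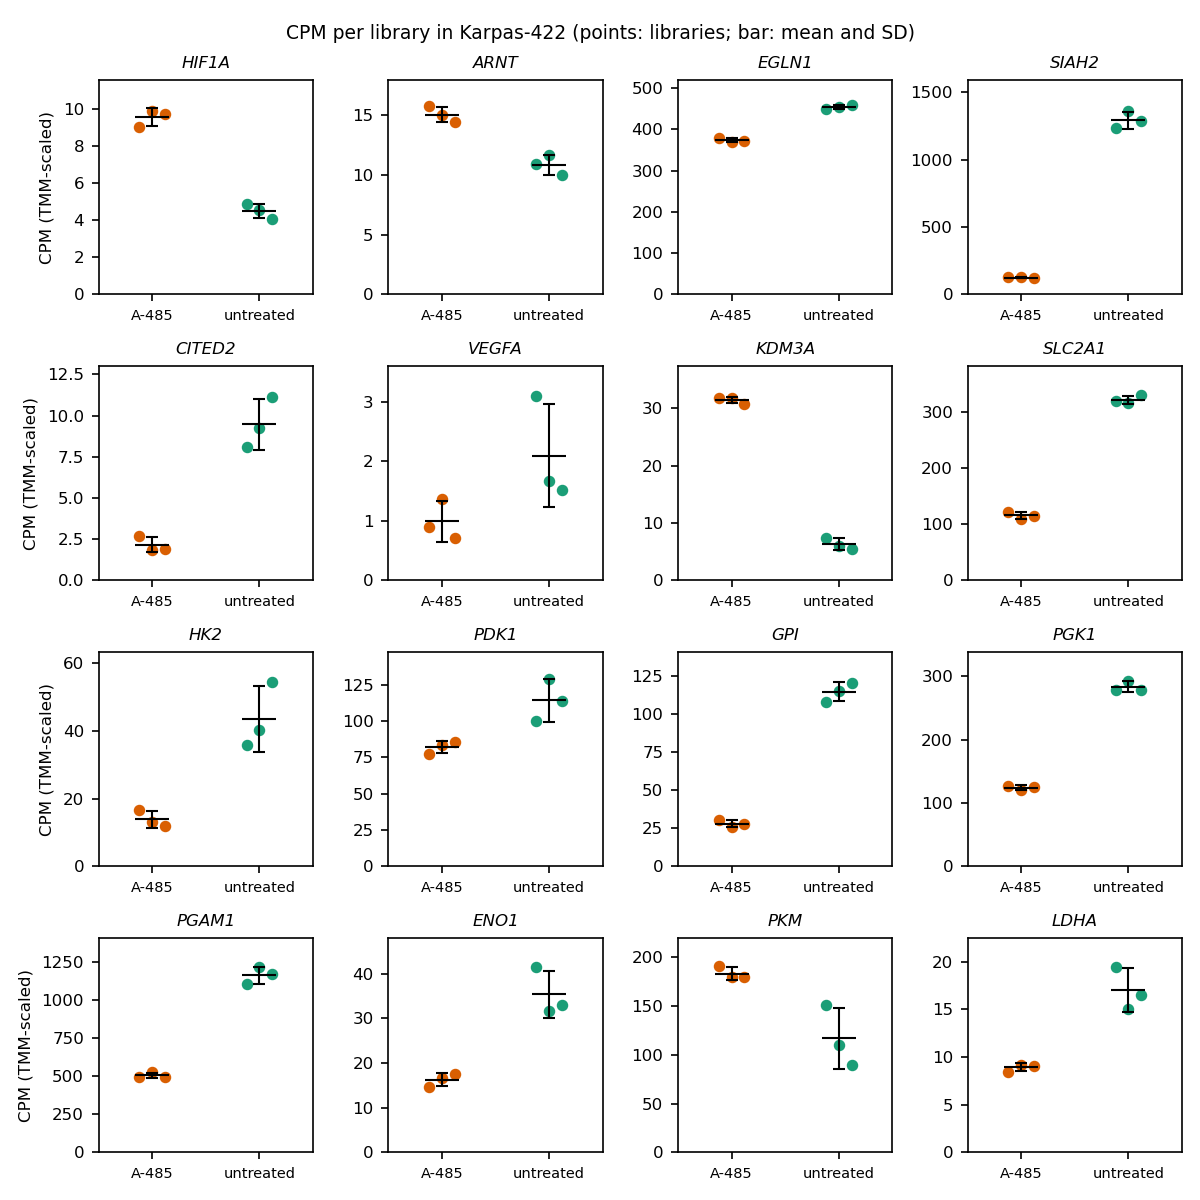
TMM-scaled CPM (y axis, from 0) of 16 members in each Karpas-422 library, A-485 left and untreated right, with the mean and SD of 3 libraries. SIAH2, SLC2A1, GPI, PGK1 and PGAM1 have tight groups far apart, whereas VEGFA and PKM have widely spread untreated libraries.

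Genes of the same pathways outside the 42 moved in both directions. The counts below stand beside 37.6% called up and 33.7% called down among all 11846 genes tested. Of the HIF machinery list, 2 of 5 tested genes rose and none fell: CREBBP by 0.40 ± 0.06 (adjusted p = 5.63e-05) and EGLN2, another HIF hydroxylase, by 0.65 ± 0.27 (adjusted p = 0.0450), while EP300 at 0.10 ± 0.13, VHL at -0.21 ± 0.14 and the HIF asparagine hydroxylase HIF1AN at -0.12 ± 0.06 were not called. Of 11 other tested genes of glycolysis and lactate handling, 5 rose and 2 fell, led by the pyruvate dehydrogenase subunits PDHB (1.61 ± 0.23) and PDHA1 (1.17 ± 0.19) and the muscle enolase ENO3 (0.94 ± 0.17), all rising. In the pentose phosphate pathway, which branches off at glucose 6-phosphate, 5 of 7 genes fell and 1 rose. RPIA (-1.16 ± 0.05) and PGD (-1.15 ± 0.13) fell, and PGLS (1.48 ± 0.16) rose. Of 12 other tested hypoxia targets, 6 rose and 5 fell, among them WSB1 (3.21 ± 0.19), a ubiquitin ligase adaptor, up, and the histone demethylase KDM4B (-1.40 ± 0.08) and ZNF395 (-1.36 ± 0.11) down. Their medians were 0.10 for the HIF machinery, 0.01 for other glycolysis, -0.83 for the pentose phosphate pathway and 0.22 for other hypoxia targets, beside 0.08 for all genes.

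In the WSU-DLCL2 clones labelled as BCL11A knockouts, no member was called against all 3 untreated libraries. Against untreated replicates 1 and 2, ADM was the only member past the adjusted threshold, and it had no count in any clone or in untreated replicate 3. The CPM given for WSU-DLCL2 are by library total. BCL11A RNA itself was not lower in the clones: its TMM-scaled CPM were 58.9, 68.3 and 53.0 in the clones and 46.9, 46.2 and 72.2 in untreated replicates 1, 2 and 3 (log2 fold change 0.13 ± 0.21, adjusted p = 0.915). Counts over the whole gene do not show whether its coding sequence was disrupted, so this does not check the label. DCN, the fibroblast gene noted in Karpas-422, had 21.1 to 65.2 CPM in the clones and 13.9 to 23.2 CPM in untreated WSU-DLCL2 and was not called, and its part in the results was not tested.

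Against untreated replicates 1 to 3, no member was called in either direction, and 0% of all 16152 genes tested were called by edgeR; at an unadjusted p under 0.05 there were 1117 genes (6.92%), among them 5 of the 36 tested members, and DESeq2 called 60 genes up and 255 down. On the TMM scale the groups did not overlap in 6 members that were higher in the clones (7.96% of all genes) and 2 that were lower (8.51% of all genes). The 6 were GPI, ALDOA, TPI1, PGAM1, PKM and LDHA, and the 2 were ANKRD37 and SLC2A3. The members' median log2 fold change was 0.04, beside -0.01 for all genes.

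Against untreated replicates 1 and 2 alone, 1 of 37 tested members was called down and none up, where 1.69% and 0.422% of all 16607 genes were called (2.11% in all). At an unadjusted p under 0.05 there were 13 members, 3 higher and 10 lower, beside 19.0% of all genes. The groups did not overlap in 7 members that were higher (19.9% of all genes) and 13 that were lower (20.3% of all genes). Among the lower members, ADM, NDRG1 and SLC2A3 passed the filter on low counts only with the untreated libraries, where they were higher. The 2 comparisons share the clones and 2 untreated libraries, so they are not independent. The number of calls also moved with single clones: without clone 2, 3 members were called up (GPI, PGAM1 and LDHA) and 6 down (ADM, VEGFA, ANKRD37, KDM3A, PFKFB4 and PDK1), among 1462 genes up and 1558 down in all.

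**Figure D3:**
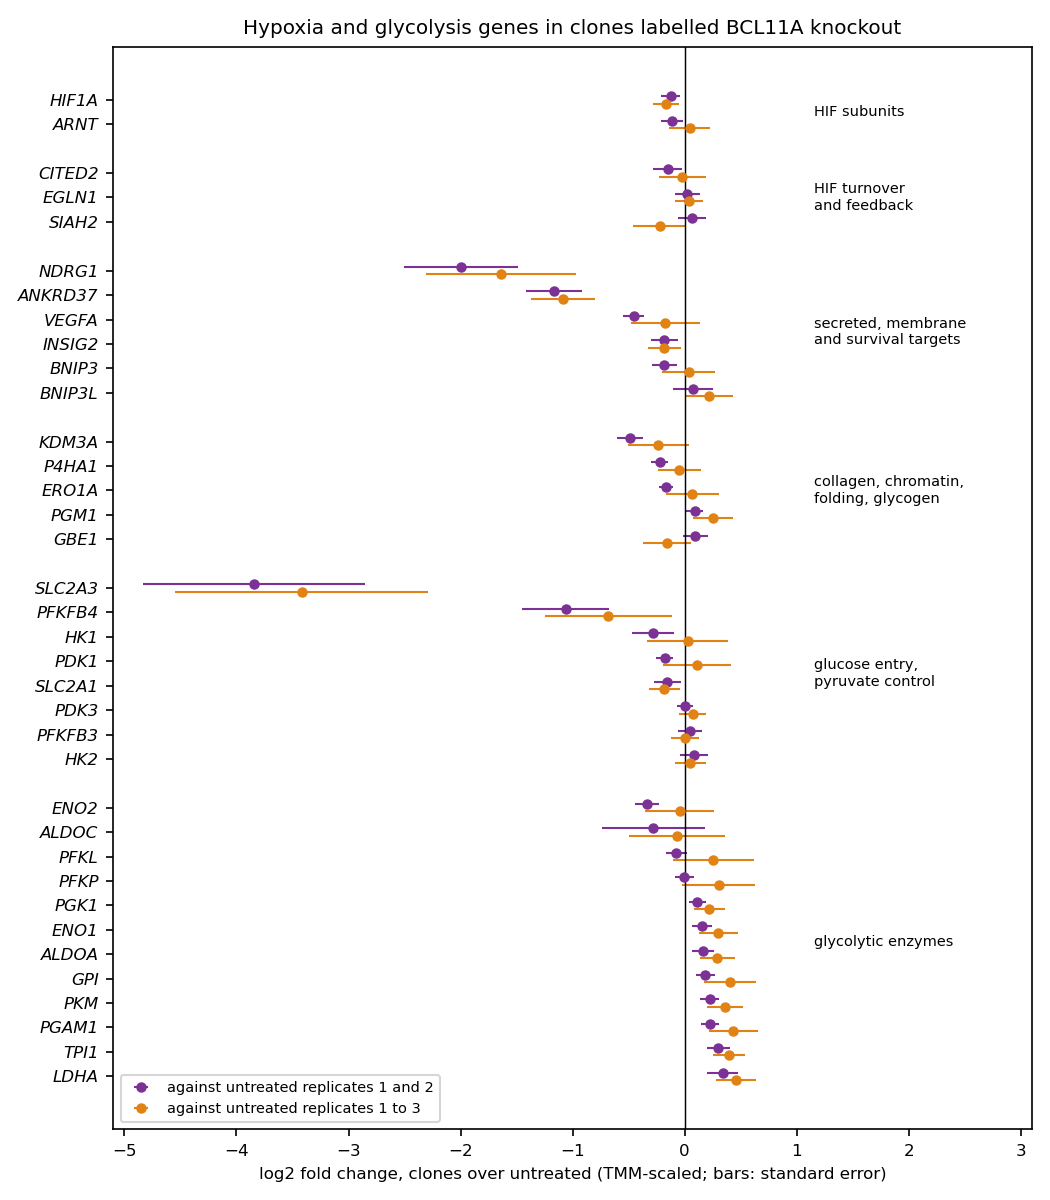
Log2 fold change of the tested members other than ADM, clones over untreated WSU-DLCL2 (x axis, TMM-scaled, bars give the standard error), against untreated replicates 1 and 2 (purple) or 1 to 3 (orange). ADM is left out because it had no count in the clones, and SLC2A3, NDRG1, ANKRD37 and PFKFB4 lie farthest to the left.

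ADM encodes adrenomedullin, a secreted vasodilator peptide that is strongly induced by hypoxia. It had 0 counts in each of the 3 clones, 34 and 39 counts (0.999 and 1.05 CPM) in untreated replicates 1 and 2, and 0 counts in untreated replicate 3. Set against a floor of 3 counts over the clones together, it was at least 33.5-fold lower than in untreated replicates 1 and 2 together, and it was not lower than in replicate 3. It passed the filter on low counts only through replicates 1 and 2, where it was high, so its call there (adjusted p = 0.0220) is no support for a difference; the call was also lost without clone 3 or without either untreated replicate, and ADM was not tested against all 3. The library that lacks ADM among the controls is the one whose labels disagree.

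Of the 7 tested secreted, membrane and survival targets, 4 had an unadjusted p under 0.05 against replicates 1 and 2, where 19.0% of all genes had one. All 4 were lower in the clones (ADM, VEGFA, NDRG1 and ANKRD37), and none but ADM was called. ADM and NDRG1 passed the filter only with the untreated libraries, where they were higher, so neither is support for a difference. Among the enzymes of collagen, chromatin, folding and glycogen 3 of 5 had such a p, again lower and uncalled (P4HA1, KDM3A and ERO1A). BNIP3L (0.08), GBE1 (0.10) and PGM1 (0.09) had log2 fold changes above 0. VEGFA had 26.7, 30.6 and 26.2 CPM in clones 1, 2 and 3, against 39.7, 36.3 and 17.8 CPM in untreated replicates 1, 2 and 3. Its log2 fold change was -0.46 ± 0.10 against replicates 1 and 2 (adjusted p = 0.0818) and -0.17 ± 0.31 against all 3 (adjusted p = 0.918). KDM3A showed the same order, with 86.6, 103 and 76.2 CPM in the clones and 122, 125 and 64.8 CPM untreated (-0.49 ± 0.11, adjusted p = 0.105, and -0.23 ± 0.27, adjusted p = 0.892). ANKRD37, an ankyrin repeat protein gene known as a HIF target, was the exception in that all 3 untreated libraries lay above all clones: 0.674, 0.745 and 0.596 CPM in the clones and 1.29, 1.72 and 1.27 CPM untreated. Its values were -1.17 ± 0.25 (adjusted p = 0.0824) and -1.09 ± 0.28 (adjusted p = 0.398). SLC2A3, the glucose transporter GLUT3, also showed no overlap, at 0.0674, 0.0573 and 0.954 CPM in the clones and 5.14, 5.44 and 1.18 CPM untreated. Clone 3 and untreated replicate 3 were close to each other, and the log2 fold changes of -3.84 ± 0.99 (adjusted p = 0.144) and -3.42 ± 1.13 (adjusted p = 0.591) carried large errors. SLC2A3 passed the filter on low counts only with the untreated libraries, where it was higher, so its separation is no support for a difference. SLC2A3 may also share reads with its near copy SLC2A14. NDRG1, a stress-response gene, had 11, 10 and 3 counts in the clones and 42, 28 and 6 counts untreated. PFKFB4 had 2.33, 6.53 and 3.85 CPM in the clones and 9.16, 8.42 and 2.59 CPM untreated, again with replicate 3 among the clones.

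The HIF subunits and their regulators showed no call in either comparison. HIF1A had 149, 169 and 174 CPM in the clones and 182, 175 and 197 CPM untreated (-0.13 ± 0.09, adjusted p = 0.480, and -0.17 ± 0.11, adjusted p = 0.849, against 2 and 3 replicates). ARNT had 64.0, 76.8 and 61.0 CPM in the clones and 74.2, 70.3 and 50.8 CPM untreated, and EGLN1 had 69.2, 89.2 and 76.4 CPM in the clones and 74.5, 78.7 and 75.9 CPM untreated. The groups overlapped in both genes. CITED2 had 7.45, 8.37 and 7.396 CPM in the clones and 8.34, 8.77 and 6.40 CPM untreated. SIAH2, the member that fell most with A-485 in Karpas-422, had 147, 142 and 177 CPM in the clones and 144, 152 and 252 CPM untreated. Here untreated replicate 3 stood above all other libraries, and the values were 0.07 ± 0.12 (adjusted p = 0.804) without it and -0.22 ± 0.24 (adjusted p = 0.885) with it. EPAS1 and EGLN3 had at most 3 counts in any library and were not tested.

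**Figure D4:**
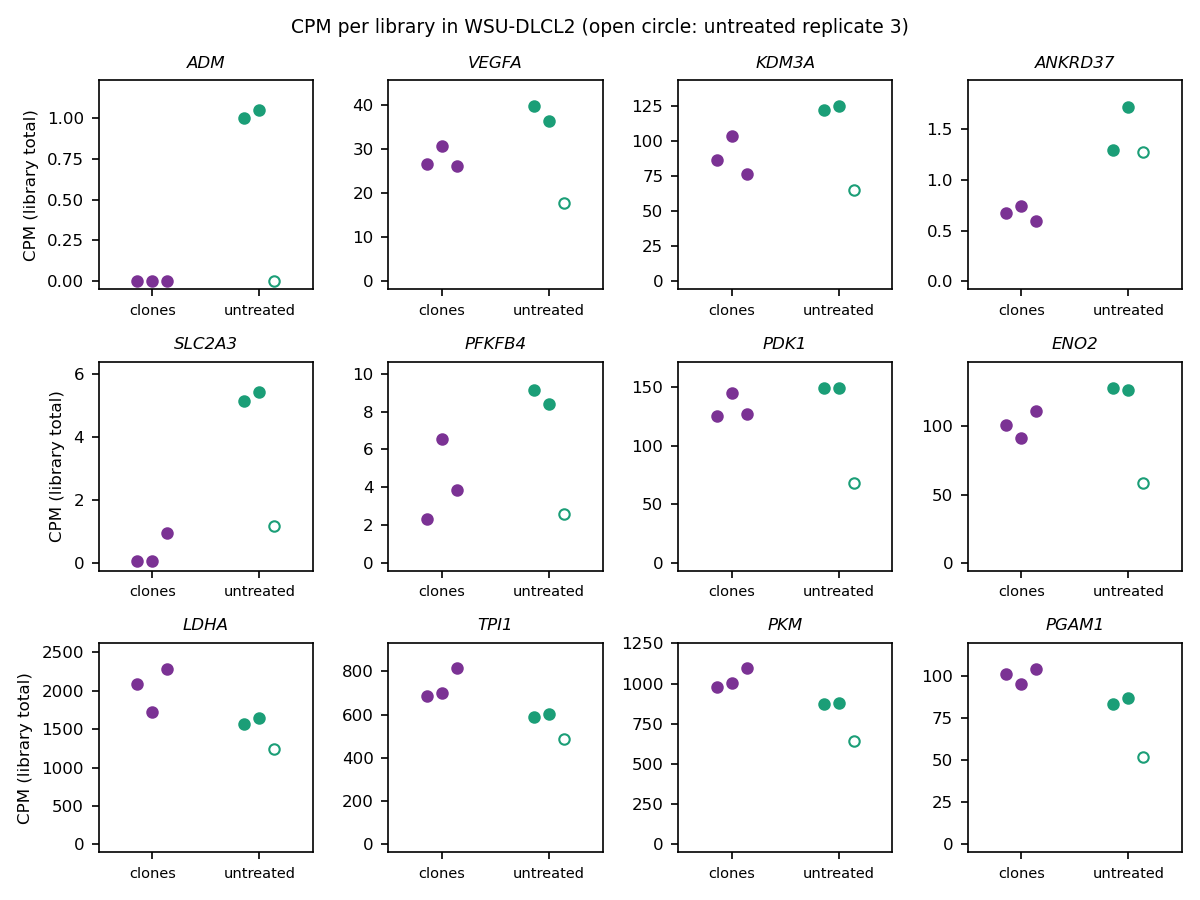
CPM by library total (y axis) of 12 members in the WSU-DLCL2 libraries, clones left and untreated right, with untreated replicate 3 as an open circle. In VEGFA, KDM3A, PDK1 and ENO2 the open circle lies below the clones while the other untreated libraries lie above them, and ADM is at 0 in the clones and in the open circle.

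None of the 12 glycolytic enzymes was called in the clones. Against replicates 1 and 2, 3 were higher (TPI1, PGAM1 and PKM) and 1 lower (ENO2) at an unadjusted p under 0.05, and ALDOC (-0.28), PFKL (-0.07) and PFKP (-0.0016) were below 0 without reaching it. LDHA had 2088, 1721 and 2289 CPM in the clones and 1568, 1642 and 1243 CPM in untreated replicates 1, 2 and 3 (0.34 ± 0.14, adjusted p = 0.266, against replicates 1 and 2; 0.46 ± 0.18, adjusted p = 0.693, against all 3). PKM had 979, 1001 and 1095 CPM in the clones and 871, 881 and 643 CPM untreated (0.22 ± 0.08, adjusted p = 0.231, and 0.36 ± 0.16, adjusted p = 0.748). In both genes all clones lay above all untreated libraries, without a call. TPI1 (0.30 ± 0.10), PGAM1 (0.23 ± 0.08) and GPI (0.18 ± 0.08) behaved alike against replicates 1 and 2. PGK1 had 700, 684 and 749 CPM in the clones and 642, 666 and 525 CPM untreated, separate by library total but overlapping on the TMM scale (0.11 ± 0.08, adjusted p = 0.487). ENO2 went the other way, at 101, 91.5 and 111 CPM in the clones and 128, 127 and 58.6 CPM untreated (-0.33 ± 0.11, adjusted p = 0.179, against replicates 1 and 2).

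Genes of glucose entry and pyruvate control had no call in the clones. SLC2A1 had 67.7, 64.5 and 78.3 CPM in the clones and 72.9, 82.8 and 83.8 CPM untreated (-0.15 ± 0.12, adjusted p = 0.537, against replicates 1 and 2). HK2 had 190, 182 and 229 CPM in the clones and 182, 196 and 205 CPM untreated (0.08 ± 0.13, adjusted p = 0.774). PDK1 had 126, 145 and 127 CPM in the clones and 149, 149 and 68.5 CPM untreated (-0.18 ± 0.08, adjusted p = 0.277), so its groups were separate without untreated replicate 3 and overlapped with it. No gene of the HIF machinery, other glycolysis, pentose phosphate or other hypoxia lists was called in either comparison. The nearest was WSB1 with TMM-scaled CPM of 262, 339 and 230 in the clones and 614 and 517 in untreated replicates 1 and 2 (-1.03 ± 0.17, adjusted p = 0.0517). BHLHE40, a transcriptional repressor induced by hypoxia, had 3.07, 1.59 and 0.365 in the clones and 13.1 and 14.7 in those replicates (-3.06 ± 0.72, adjusted p = 0.123).

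Among the members, enzymes of glycolysis had the highest levels per length. Per kilobase of exonic length in untreated WSU-DLCL2, ENO1 ranged over 216 to 305 CPM, LDHA over 200 to 264, ALDOA over 172 to 227 and TPI1 over 180 to 223. These ranges overlapped because all 4 genes were lowest in untreated replicate 3. Within each untreated library ENO1 was highest and LDHA next. ALDOA lay above TPI1 in replicates 1 and 2 and below it in replicate 3, so the order of ALDOA and TPI1 is not resolved. PGK1 (95.2 to 121) and PKM (75.0 to 103) lay below all 4, and the order was not tested. HIF1A ranged over 34.0 to 38.2, whereas EPAS1, EGLN3, CA9 and P4HA2 were below 0.1.

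In the A-485-treated WSU-DLCL2 libraries, which are shallow like those of Karpas-422, members took positions on both sides of the Karpas-422 levels (CPM by library total). The libraries of the lines were not alike in all respects. Reads not aligned made up 14.1% to 14.6% in treated WSU-DLCL2, 2.51% to 2.86% in treated Karpas-422 and 2.59% to 2.65% in untreated Karpas-422. Set against A-485-treated Karpas-422, 13 members lay wholly above, 13 wholly below and 16 overlapped; against untreated Karpas-422, 11 lay above, 15 below and 16 overlapped. These numbers compare lines as well as treatments, so they show no effect of A-485 in WSU-DLCL2. SIAH2 had 320, 327 and 304 CPM in treated WSU-DLCL2, 143, 143 and 138 CPM in treated Karpas-422 and 1149, 1119 and 1099 CPM in untreated Karpas-422, and so lay between the Karpas-422 groups. KDM3A also lay between them, with 13.6 to 16.5 CPM in treated WSU-DLCL2, 35.4 to 36.7 CPM in treated Karpas-422 and 4.604 to 6.72 CPM in untreated Karpas-422. PGAM1 (1924 to 2019 CPM), GPI (138 to 168 CPM), PDK1 (166 to 178 CPM) and LDHA (21.9 to 25.1 CPM) in treated WSU-DLCL2 lay above both Karpas-422 groups. BNIP3 and PDK3 also lay above both. BNIP3 had 73.8 to 76.5 CPM in treated WSU-DLCL2, 4.19 to 6.03 CPM in treated and 3.46 to 4.32 CPM in untreated Karpas-422, and PDK3 had 82.7 to 86.5 CPM in treated WSU-DLCL2, 6.17 to 8.34 CPM in treated and 8.35 to 9.77 CPM in untreated Karpas-422. CITED2 was lowest in treated WSU-DLCL2, at 0.299 to 1.41 CPM, against 2.14 to 3.08 CPM in treated and 7.33 to 9.50 CPM in untreated Karpas-422.

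**Figure D5:**
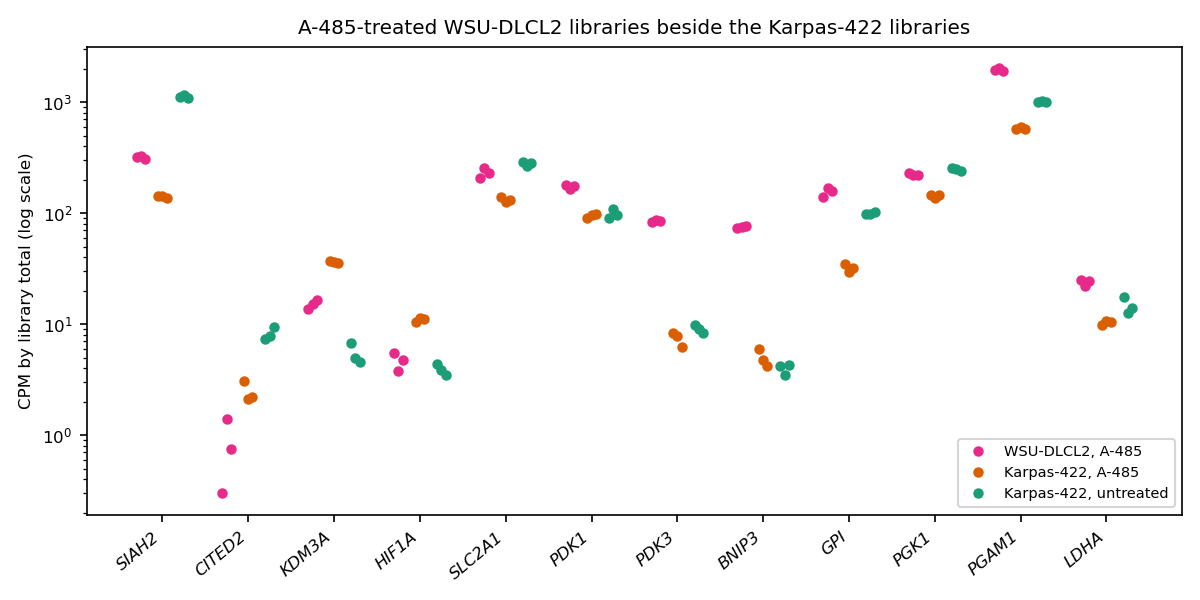
CPM by library total (y axis, log scale) of 12 members in the 3 libraries each of A-485-treated WSU-DLCL2, A-485-treated Karpas-422 and untreated Karpas-422. SIAH2 and KDM3A of WSU-DLCL2 lie between the Karpas-422 groups, PDK3 and BNIP3 far above both, and CITED2 below both.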

How the data were processed

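Total RNA of 2 lymphoma lines was sequenced, and the authors deposited read counts per gene for 15 libraries. The submitters' processing notes list GRCh37 (hg19), RSEM and STAR 2.5.3a; no source used here gives the counting program, annotation, kit or strand. These counts are whole numbers and were used as deposited; 5 summary lines per file (27.3% to 70.2% of reads) stayed out of library sizes and tests. Genes were named by identifier (52526 of 63677 had a symbol) from a gene name table and GENCODE 29. Titles gave the groups, and the 3 runs of untreated WSU-DLCL2 replicate 3 share 1 count file. No replicate pair held identical values (lowest mean chi-square 1.20) and none was merged.

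Comparisons used edgeR 4.0.16 in R 4.3.3 (TMM, filterByExpr, robust quasi-likelihood fit, two-sided test, Benjamini-Hochberg adjustment over all genes kept, threshold 0.05), fitted on the groups compared, and the procedure was tested on simulated data. Standard errors are |log2 fold change| / √F. Genes were named in full by rule (the 8 largest called changes each way and 13 fixed genes), the rest by range, and from each list of other genes the 3 with the smallest p. The members and lists were chosen with earlier results of these data known. The floor for a gene at 0 was 3 counts over the group. Counts are of reads, not molecules, so floors cover counting error only. Promoters are from RefSeq. Alternatives were other scalings, no filter, DESeq2 1.42.0, a replicate block and leaving out each library.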

Additional observations from a re-analysis of the deposited data

How the results depend on the processing

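In Karpas-422, scaling by library sizes alone gave 2292 genes and 12 members down. It turned EGLN1 to 0.12, a called rise, and ERO1A to 0.029, not called, on the log2 scale. Without a filter on low counts 5 members were up, and with DESeq2 4. Leaving out 1 library at a time kept the counts of members up within 6 to 8 and down within 17 to 19. In the clones against untreated replicates 1 to 3, dropping the filter gave 1 gene up and 19 down, and DESeq2 60 up and 255 down; leaving out 1 library gave 0 to 70 genes up, 0 to 281 down and 0 to 1 members down, where the higher values are those without untreated replicate 3. Against replicates 1 and 2, dropping the filter gave 222 up and 613 down with 5 members down, and DESeq2 405 up and 748 down with 3 members down (VEGFA, KDM3A and SLC2A3). Leaving out 1 library gave 0 to 1462 genes up and 1 to 1558 down, with 0 to 3 members up and 0 to 6 down, the highest without clone 2 and the lowest without either untreated replicate. ADM lost its call without clone 3 and without untreated replicate 1 or 2. Deviations of same-numbered replicates from their group means correlated at 0.01, 0.06 and -0.04 in Karpas-422 and 0.10, 0.03 and 0.22 in WSU-DLCL2. Different numbers gave -0.09 to 0.06 in Karpas-422 and -0.23 to 0.12 in WSU-DLCL2. The 0.22, of clone 3 with untreated replicate 3, was the highest in WSU-DLCL2. No label marks the numbers as pairs, and they were not used as pairs. A fit with the replicate block gave 4346 genes up and 3905 down in Karpas-422, with 6 members up and 18 down, and 0 calls against replicates 1 to 3. Against replicates 1 and 2 it gave 16 up and 73 down, with 1 member down, SLC2A3 in place of ADM. SLC2A3 and ADM both passed the filter only with the untreated libraries, where they were higher. The cause of these changes was not tested. Depth limits the precision of members with few counts, such as VEGFA in Karpas-422 (29 counts with A-485 and 43 untreated).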
